A study of Mus musculus with 23 samples.

Results

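The inhibitory postsynapse and GABA-B genes described here are 8 of the 56941 genes in the count tables. They were taken by symbol, through their Ensembl identifiers in the GENCODE M39 annotation of GRCm39. They are *Gphn*, *Nlgn2*, *Lhfpl4*, *Gabrb1*, *Gabrb2*, *Gabbr1*, *Gabbr2* and *Glrb*. RNA came from primary hippocampal cultures of newborn homozygous Nedd8cKO mice, a C57BL/6N line in which CRE recombinase removes exons of *Nedd8*, the gene of a small protein that is attached to other proteins much as ubiquitin is. On the day after plating the cultures received a lentivirus that expressed RFP together with CRE (12 libraries) or RFP alone (11 libraries), and RNA was extracted after 12 days in culture according to the labels, while the study's methods give 1 day more. Both groups thus carried the floxed allele and a virus. The viral promoter was that of Synapsin 1, which is active in neurons, and recombination in other cell types of the dish was not measured here.

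Fast inhibition in the brain runs through chloride channels that GABA or glycine opens. Gephyrin, the product of *Gphn*, forms a lattice under the postsynaptic membrane that holds these channels in place. Neuroligin 2 spans the cleft to presynaptic neurexins, and LHFPL4, also called GARLH4, is a membrane protein that links GABA-A receptors to it. *Gabrb1* and *Gabrb2* encode beta subunits of the GABA-A receptor, and *Glrb* encodes the glycine receptor subunit that binds gephyrin. The slower GABA-B response uses a G protein-coupled receptor made of one GABBR1 and one GABBR2 subunit, of which the former binds GABA and the latter couples to the G protein.

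The genes lie on 7 autosomes. In GRCm39 *Gphn* spans chr12:78272504-78732541 on the plus strand, *Nlgn2* chr11:69713948-69728613 on the minus strand, *Lhfpl4* chr6:113145047-113172348 on the minus strand, *Gabrb1* chr5:71815456-72319431 on the plus strand, *Gabrb2* chr11:42310493-42523417 on the plus strand, *Gabbr1* chr17:37356703-37387265 on the plus strand, *Gabbr2* chr4:46662244-46991971 on the minus strand and *Glrb* chr3:80749136-80882860 on the minus strand. Their longest transcripts differ in base composition. *Gphn* (39% GC), *Gabrb2* (39.4%), *Glrb* (39.8%) and *Gabrb1* (41.0%) are AT-rich, and *Gabbr1* (52.1%), *Gabbr2* (56.2%), *Lhfpl4* (57.0%) and *Nlgn2* (60.7%) are GC-rich.

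The upstream sequences of 4 of the genes are shown because the RNA of 3 of them was lower in CRE libraries while that of *Lhfpl4* was not, so that the regions before their starts can be read side by side. Each is the run of 250 bases that ends just before a RefSeq start in GRCm38.p6, an earlier build than that of the counts, read 5′ to 3′ on the gene's strand. Capitals mark matches, on either strand, to GGGCGG (the GC box bound by SP1), CGCATGCG (the core site of NRF1), TGACGTCA (the cyclic AMP response element) and TATAAA (the element bound by TBP).
*Gabrb1*, the later of its 2 starts, chr5:71699682-71699931, plus strand: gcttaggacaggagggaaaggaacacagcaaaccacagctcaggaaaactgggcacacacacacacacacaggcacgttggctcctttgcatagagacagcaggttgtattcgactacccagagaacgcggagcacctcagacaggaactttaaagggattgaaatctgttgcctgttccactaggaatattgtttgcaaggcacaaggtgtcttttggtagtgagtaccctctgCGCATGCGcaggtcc
*Gabrb2*, the earliest of its 3 starts, chr11:42420190-42420439, plus strand: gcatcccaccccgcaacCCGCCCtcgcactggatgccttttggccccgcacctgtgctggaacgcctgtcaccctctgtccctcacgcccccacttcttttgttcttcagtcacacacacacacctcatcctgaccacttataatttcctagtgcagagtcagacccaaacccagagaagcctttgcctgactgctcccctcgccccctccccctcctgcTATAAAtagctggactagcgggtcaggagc
*Gabbr2*, chr4:46991715-46991964, minus strand: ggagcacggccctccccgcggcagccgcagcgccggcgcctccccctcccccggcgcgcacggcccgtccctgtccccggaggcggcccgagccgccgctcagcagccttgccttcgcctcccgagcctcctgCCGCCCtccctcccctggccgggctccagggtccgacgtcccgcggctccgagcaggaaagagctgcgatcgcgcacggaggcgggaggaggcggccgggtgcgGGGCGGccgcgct
*Lhfpl4*, chr6:113195385-113195634, minus strand: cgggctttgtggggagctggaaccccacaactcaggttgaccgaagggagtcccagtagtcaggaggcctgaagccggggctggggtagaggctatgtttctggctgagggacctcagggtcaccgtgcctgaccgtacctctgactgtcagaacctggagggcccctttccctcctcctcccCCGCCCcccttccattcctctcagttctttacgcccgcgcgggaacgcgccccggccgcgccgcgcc

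The 8 genes have 11 such regions among the 32851 in the table. A GC box was found in 7 of the 11, which belong to 7 genes (all but *Gabrb1*), against 32.7% of all regions. CGCATGCG was found before the later *Gabrb1* start alone, and 1.55% of all regions hold it. TATAAA was found before the earliest *Gabrb2* start, against 12.4% of all regions, and TGACGTCA in none of the 11, against 1.55%. *Gabbr2*, which was lower in CRE, and *Lhfpl4*, which did not pass the test, both had GC boxes and no match to the other 3 motifs.

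The values are reads per gene as counted by the authors, scaled here to CPM, the count as a share of the library's total after TMM adjustment. The groups were compared over 21 libraries, 11 CRE and 10 RFP, leaving out CRE 3-3 (1546796 counts in all) and RFP 3-2 (24.2% of its counts from *Rn18s*). The study's methods name CRE 1-3 and CRE 3-3 as the libraries removed. Totals in the 21 ran from 7430401 to 13345552 counts in CRE and from 9833872 to 17112815 in RFP libraries. CRE 1-3 and RFP 2-4 are among the 21 and also stood apart: mitochondrial genes held 0.261% and 3.44% of their counts, against 7.0% to 11.1% in the other 19 libraries. Each comparison was therefore repeated over these 19 (10 CRE, 9 RFP) and over all 23. *Nedd8* itself was at 5.92 to 18.0 CPM in the CRE and 44.1 to 76.0 CPM in the RFP libraries of the 21, without overlap, a difference of -2.44 ± 0.17 on the log2 scale (SE).

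Of the 8 genes, all of which passed the filter on low counts, 5 were lower in CRE libraries at an adjusted p under 0.05 over the 21 libraries (edgeR, Benjamini-Hochberg adjustment over 14488 genes) and 0 were higher. Without RFP 2-1 the count was 3. The 5 were *Gabrb1*, *Gabbr2*, *Gabrb2*, *Gphn* and *Gabbr1*. Among all genes tested 13.8% were lower and 16.4% higher. The median log2 difference was -0.46 over the 8 genes and 0.019 over all genes. Over the 19 libraries 7 of the 8 were lower, with *Nlgn2* and *Glrb* added, and 0 higher, while 18.7% of 14666 genes were lower and 19.4% higher. *Lhfpl4* did not pass in any of the 3 sets. In whole cultures, fewer cells of a type and less RNA per cell cannot be told apart.

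**Figure D1:**
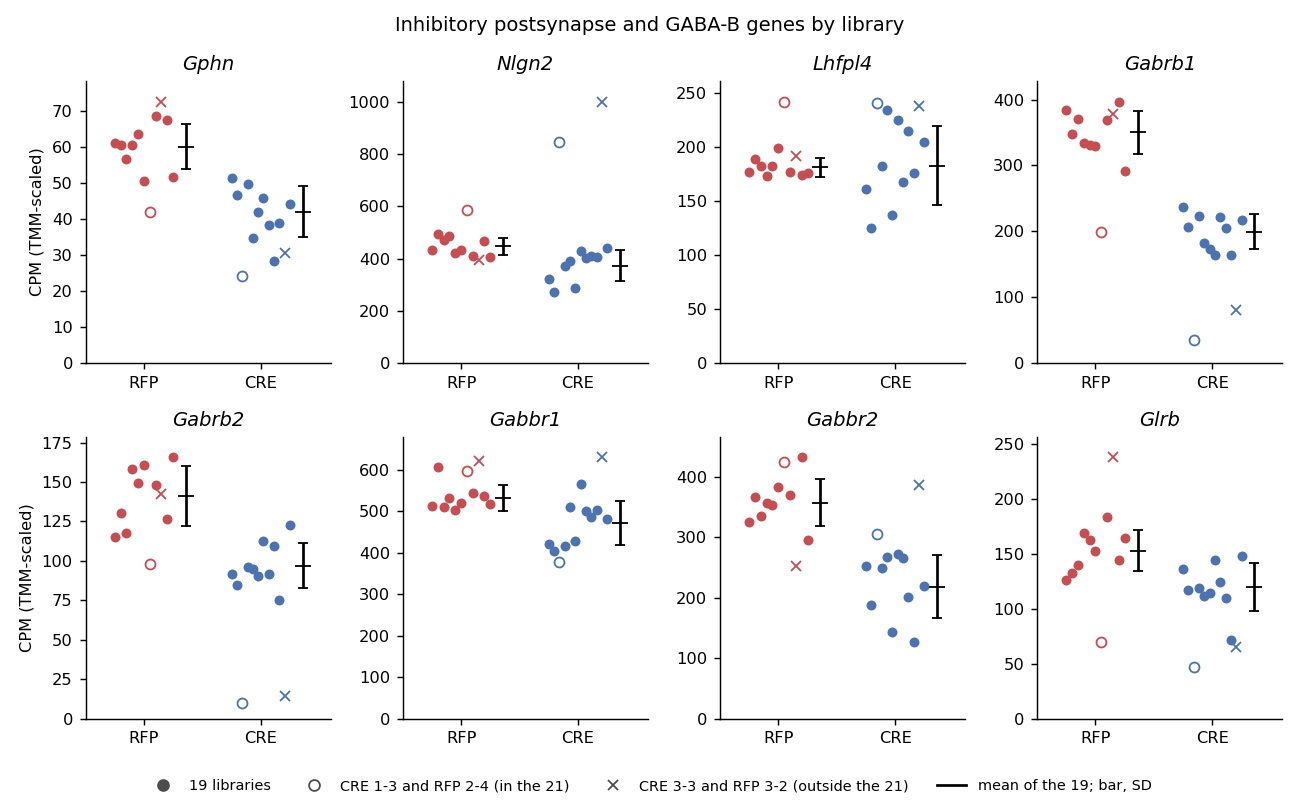
CPM (y axis, linear from 0) of each of the 8 genes in every RFP (red) and CRE (blue) library; filled points are the 19 libraries, open circles CRE 1-3 and RFP 2-4, crosses CRE 3-3 and RFP 3-2, and black bars the mean and SD of the 19. *Gabrb1* and *Gabbr2* do not overlap between the groups among filled points, and *Gabrb2* is near 0 in the open and crossed CRE points (10.1 and 14.3 CPM).

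*Gphn* had the lowest level of the set and was lower in CRE. Over the 21 libraries it ran from 24.1 CPM through a median of 42.0 to 51.5 CPM in CRE, and from 42.1 through 60.5 to 68.6 CPM in RFP. All 11 CRE libraries lay below the RFP median, and the ranges overlapped. The means were 40.4 ± 8.64 (SD, n = 11) and 58.3 ± 8.21 CPM (SD, n = 10), and the log2 difference was -0.55 ± 0.13 (SE, edgeR adjusted p = 0.00173). Over the 19 libraries it was -0.53 ± 0.10 (adjusted p = 0.000131) and over all 23 it was -0.58 ± 0.13 (adjusted p = 0.00104). *Gphn* is the most AT-rich of the 8, and once the dependence on GC was taken out of every library the difference over the 21 was -0.34 with an adjusted p of 0.107, whereas over the 19 it was -0.50 with an adjusted p of 0.000182. Of its exon bases, 796 lie opposite exons of the non-coding gene *Gm48226*, and since the strand setting of the counting is not given, reads from both strands there may be in the count.

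The adhesion genes differed less. *Nlgn2* ran from 272 CPM through a median of 401 to 845 CPM in the 11 CRE libraries and from 405 through 451 to 586 CPM in the 10 RFP libraries. CRE 1-3 held the highest of these values although 10 of the 11 CRE libraries lay below the RFP median. The log2 difference was -0.17 ± 0.15 (95% interval -0.46 to 0.12, edgeR adjusted p = 0.441) over the 21 libraries, -0.28 ± 0.09 (adjusted p = 0.0106) over the 19, and 0.029 ± 0.18 (adjusted p = 0.923) over all 23, so of these 3 sets it passed in the one that leaves out both CRE 1-3 and CRE 3-3. With CRE 1-3 alone removed from the 21 it was -0.32 (adjusted p = 0.00565). With the GC trend removed it was -0.18 over the 21 and -0.14 over the 19, with adjusted p of 0.0826 and 0.0909.

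*Lhfpl4* ran from 125 CPM through a median of 183 to 241 CPM in CRE and from 173 through 180 to 242 CPM in RFP. The means were 188 ± 38.9 (SD, n = 11) and 187 ± 20.8 CPM (SD, n = 10). Its log2 difference of -0.011 ± 0.11 over the 21 libraries had a 95% interval from -0.24 to 0.21 (edgeR adjusted p = 0.957), or from -15.1% to 15.9% on the linear scale. CRE libraries lay on both sides of RFP: of the 10 CRE libraries of the 19, 4 were below every RFP library and 4 above every RFP library. The SD among those CRE libraries was 36.7 CPM and among the RFP libraries 8.45 CPM.

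**Figure D2:**
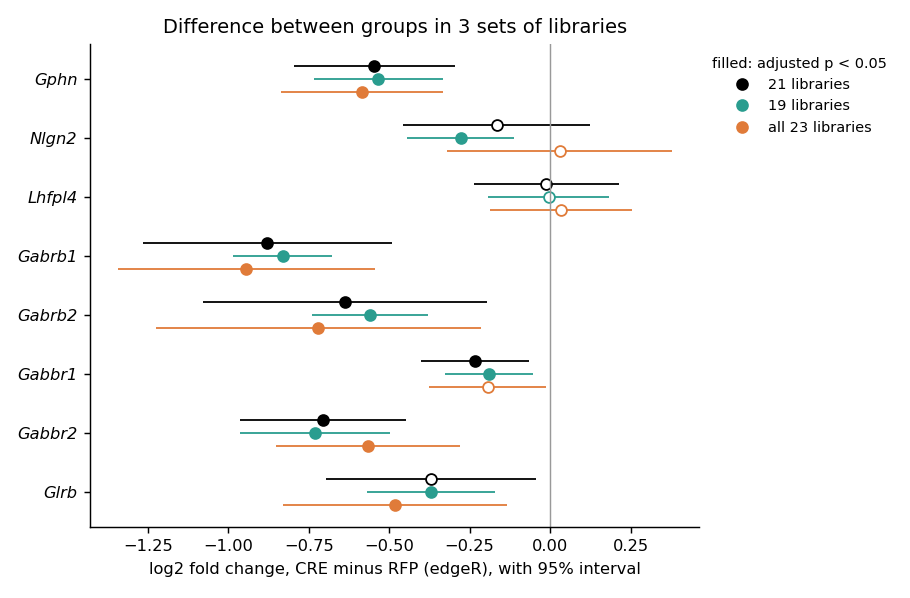
Difference between the groups for each gene (x axis, log2 fold change from edgeR, CRE minus RFP, with 95% intervals) over 21 (black), 19 (green) and all 23 libraries (orange); filled points have an adjusted p under 0.05. *Gphn*, *Gabrb1*, *Gabrb2* and *Gabbr2* are filled in all 3 sets, and *Lhfpl4*, at -0.011 over the 21, is open in all of them.

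*Gabrb1* had the largest difference of the 8 genes over the 21, the 19 and all 23 libraries, though not without culture 1 (-0.77, with *Gabbr2* at -0.82). In the 21 libraries it ran from 34.5 CPM through a median of 205 to 236 CPM in CRE and from 198 through 341 to 396 CPM in RFP. The lowest library of each group was the one that stood apart, CRE 1-3 and RFP 2-4. Without this pair the groups did not overlap, since CRE ended at 236 CPM and RFP began at 292 CPM. The log2 difference was -0.88 ± 0.20 over the 21 libraries (edgeR adjusted p = 0.00124), -0.83 ± 0.08 over the 19 (adjusted p = 3.02e-09) and -0.94 ± 0.20 over all 23 (adjusted p = 0.000868). On the linear scale the change over the 19 was -43.8%, with a 95% interval from -49.5% to -37.4%. Small parts of its exons lie opposite *Commd8* (396 bases) and *Gabra4* (101 bases).

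*Gabrb2*, the beta subunit common in mature neurons, was at a lower level and also fell. It ran from 10.1 CPM through a median of 92.0 to 123 CPM in CRE and from 97.9 through 139 to 166 CPM in RFP. CRE 1-3 had 74 reads of it, the smallest count of any of the 8 genes in the 21 libraries. The log2 difference was -0.64 ± 0.22 over the 21 libraries (edgeR adjusted p = 0.0331), -0.56 ± 0.09 over the 19 (adjusted p = 1.75e-05) and -0.72 ± 0.26 over all 23 (adjusted p = 0.0364). Among the 19, 9 of 10 CRE values were under the whole RFP range. Its call over the 21 was lost when culture 2 (-0.67, adjusted p = 0.216) or culture 3 (-0.71, adjusted p = 0.0953) was left out, and without RFP 2-1, RFP 2-2, RFP 2-3 or RFP 3-4, with adjusted p up to 0.0555.

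The *Gabrb1* to *Gabrb2* ratio of counts within a library compares both beta subunits without any scaling between libraries. It ran from 1.46 through a median of 2.19 to 3.42 in CRE and from 1.76 through 2.35 to 3.34 in RFP. The mean log2 ratio differed by -0.18 (two-sided permutation test over the 21 libraries, p = 0.226, adjusted over the 2 ratios tested 0.226). Over the 19 libraries it differed by -0.27 (permutation p = 0.0552), and over all 23 by -0.075 (permutation p = 0.68). Within each of the 3 cultures the mean log2 ratio over the 21 was lower in CRE, by -0.19, -0.14 and -0.31, while the ranges overlapped in each. A permutation of labels within cultures, chosen after the data were seen, gave -0.21 (p = 0.0638) over the 21 and -0.26 (p = 0.025) over the 19, where the CRE ratios of culture 1 (2.33 to 2.57) lay below those of RFP (2.67 to 3.34). Counts summed per culture gave 1.90 to 2.47 in CRE and 2.10 to 3.02 in RFP, with an exact permutation p of 0.3. The call thus depended on the libraries and on whether the culture number was used.

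The GABA-B subunits fell by different amounts. *Gabbr2* ran from 126 CPM through a median of 249 to 304 CPM in CRE and from 295 through 361 to 432 CPM in RFP. In 10 of the 11 CRE libraries it was under the whole RFP range, the exception being CRE 1-3, and without CRE 1-3 and RFP 2-4 the groups did not overlap. The log2 difference was -0.71 ± 0.13 over the 21 libraries (edgeR adjusted p = 0.00018), -0.73 ± 0.12 over the 19 (adjusted p = 2.33e-05) and -0.57 ± 0.15 over all 23 (adjusted p = 0.00432). On the linear scale the change over the 19 was -39.7%, with a 95% interval from -48.7% to -29.1%. *Gabbr2* and *Gabrb1* were the 2 of the 8 genes with every CRE library below every RFP library in the 19, a pattern that 4.04% of all genes tested had.

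*Gabbr1* ran from 377 CPM through a median of 482 to 566 CPM in CRE and from 502 through 526 to 607 CPM in RFP. In 8 of the 11 CRE libraries it was under the whole RFP range. The log2 difference was -0.23 ± 0.09 over the 21 libraries (edgeR adjusted p = 0.0401), -0.19 ± 0.07 over the 19 (adjusted p = 0.0314) and -0.19 ± 0.09 over all 23 (adjusted p = 0.124). The call over the 21 was lost without RFP 1-2, RFP 2-1, RFP 2-4, RFP 3-1 or RFP 3-3, with adjusted p up to 0.0936, without each of the 3 cultures (adjusted p of 0.331, 0.143 and 0.0565 without culture 1, 2 and 3), and with counts summed per culture (-0.25, adjusted p = 0.13). Of its exon bases, 494 lie opposite a non-coding gene that the tables do not list.

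Within a library the *Gabbr1* to *Gabbr2* ratio of counts was on average higher in CRE, least so in culture 1. It ran from 1.24 through a median of 2.08 to 3.99 in CRE and from 1.24 through 1.48 to 1.75 in RFP over the 21 libraries. CRE 1-3 had the lowest CRE ratio, and 8 of the 11 CRE libraries lay above every RFP library. The mean log2 ratio differed by 0.50 (two-sided permutation test, p = 0.00144, adjusted over the 2 ratios 0.00288). Over the 19 libraries it differed by 0.57 (permutation p = 8.66e-05, adjusted 0.000173) and over all 23 by 0.40 (permutation p = 0.0113, adjusted 0.0225), where RFP 3-2 had a ratio of 2.46. In cultures 1, 2 and 3 the mean log2 ratio over the 21 differed by 0.056, 0.61 and 0.91. The ranges of culture 1 overlapped, at 1.24 to 2.14 in CRE and 1.52 to 1.66 in RFP. Over the 19 the difference in culture 1 was 0.19. Counts summed per culture, 3 against 3, gave 1.69 to 2.65 in CRE and 1.41 to 1.59 in RFP, without overlap. The p was the smallest that an exact permutation test of that size allows (0.1).

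**Figure D3:**
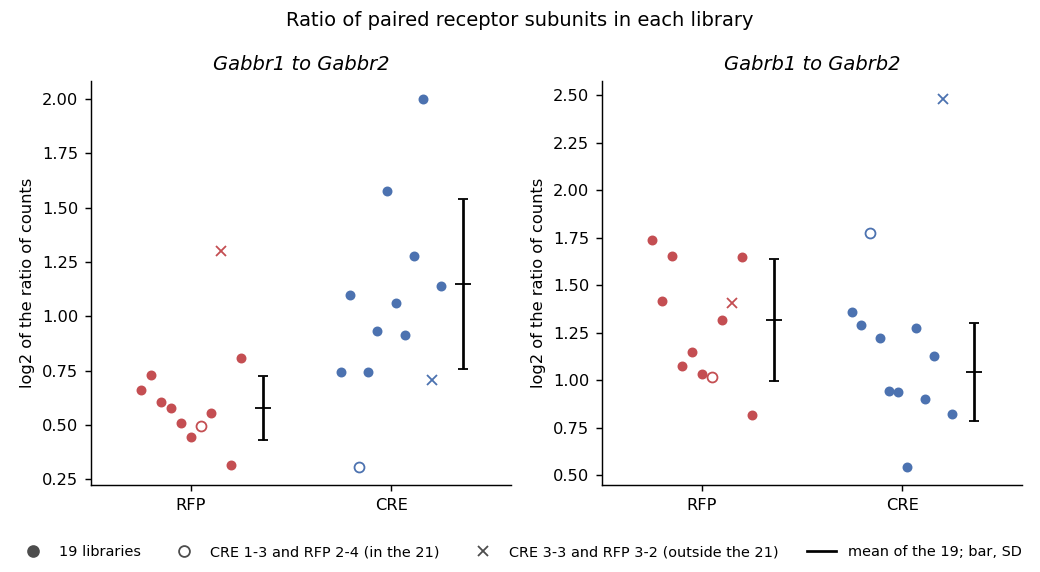
Log2 of the ratio of counts of *Gabbr1* to *Gabbr2* (left) and *Gabrb1* to *Gabrb2* (right) in each library, with symbols as in the plot of CPM by library and black bars for the mean and SD of the 19. The left ratio averages 1.15 in the CRE and 0.58 in the RFP libraries of the 19, the right one 1.04 and 1.32.

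*Glrb* ran from 47.1 CPM through a median of 117 to 148 CPM in CRE and from 69.3 through 148 to 184 CPM in RFP. The lowest values of both groups came from CRE 1-3 and RFP 2-4. Over the 21 libraries the log2 difference of -0.37 ± 0.17 missed the threshold (edgeR adjusted p = 0.0973). Over the 19 it was -0.37 ± 0.10 (adjusted p = 0.00447) and over all 23 it was -0.48 ± 0.18 (adjusted p = 0.0416). Every CRE library of the 21 lay below the RFP median, and 7 of 10 CRE values were under the whole RFP range among the 19. Leaving out RFP 2-4 alone from the 21 gave -0.43 (adjusted p = 0.0328), CRE 2-3 alone -0.45 (adjusted p = 0.0491) and CRE 3-4 alone -0.45 (adjusted p = 0.0483).

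In CRE 1-3, CRE 3-3 and RFP 2-4 the AT-rich genes were low, and *Nlgn2*, *Lhfpl4* and *Gabbr2*, of the GC-rich ones, high. Against the median of its own group in the 19, CRE 1-3 was at -3.09 for *Gabrb2*, -2.54 for *Gabrb1*, -1.31 for *Glrb* and -0.82 for *Gphn* on the log2 scale, and at 1.09 for *Nlgn2*. GC-rich *Gabbr1* was at -0.36 there. CRE 3-3 ran from -2.63 for *Gabrb2* to 1.34 for *Nlgn2*, and RFP 2-4 from -1.13 for *Glrb* to 0.45 for *Lhfpl4*. Across 11675 genes, which are not independent replicates, the deviation of a library followed GC content with a Spearman correlation of 0.80 in CRE 1-3, 0.63 in CRE 3-3 and 0.65 in RFP 2-4, against -0.22 to 0.33 in the 19. In RFP 3-2 it was -0.13. With the GC trend removed, the differences over the 21 libraries were -0.85 for *Gabrb1*, -0.76 for *Gabbr2*, -0.62 for *Gabrb2* and -0.29 for *Gabbr1*, all with an edgeR adjusted p under 0.05 (4.78e-08, 4.64e-05, 8.52e-05 and 0.026), a fit chosen after the data were seen.

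**Figure D4:**
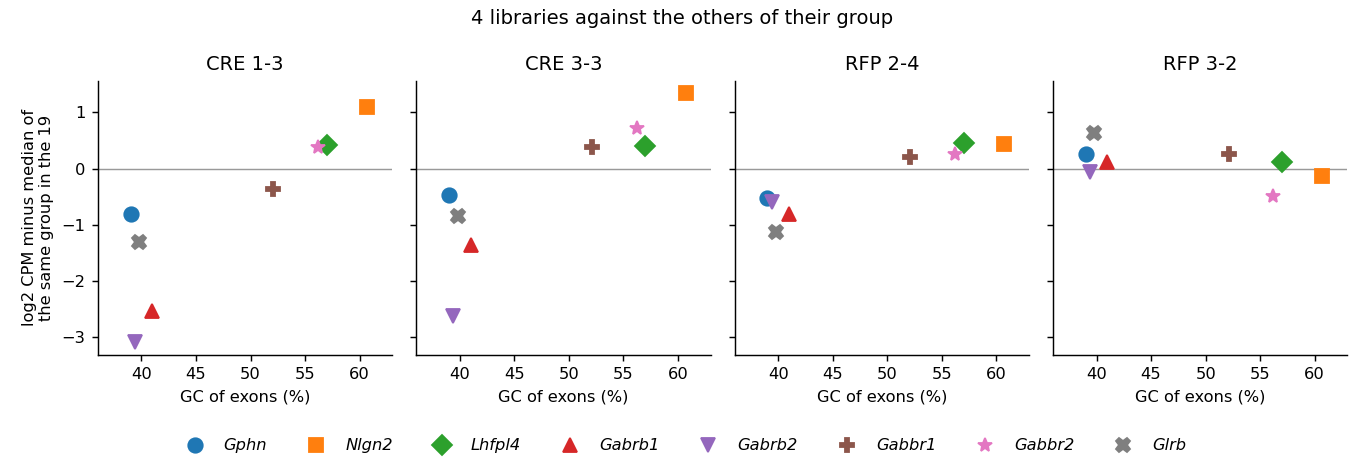
GC content of the longest transcript of each gene (x axis, %, labelled GC of exons) against its log2 CPM minus the median of its own group in the 19 libraries (y axis), for CRE 1-3, CRE 3-3, RFP 2-4 and RFP 3-2. In the first 3 panels the AT-rich genes lie below 0 and *Nlgn2*, the most GC-rich, lies above it (1.09 in CRE 1-3); in RFP 3-2 the correlation with GC across genes was -0.13.

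Levels between genes were compared per kilobase of annotated exon in the 9 RFP libraries of the 19. *Nlgn2* was highest at 72.5 ± 5.40 CPM per kb (SD), followed by *Gabbr1* at 56.7 ± 3.34 and *Gabbr2* at 43.2 ± 4.65. *Gabrb1* (20.8 ± 1.94) and *Lhfpl4* (20.1 ± 0.94) came next and did not differ beyond their spread. *Glrb* (13.9 ± 1.70) and *Gabrb2* (12.9 ± 1.74) were likewise within their spread, and *Gphn* was lowest at 4.8 ± 0.50 CPM per kb. In the 10 CRE libraries *Lhfpl4* (20.3 ± 4.07) stood above *Gabrb1* (11.8 ± 1.55), *Glrb* (10.9 ± 1.99) was within the spread of *Gabrb1*, and the other places were the same. Divided by the length of the canonical transcript, *Gabrb1* ranked below *Glrb* in both groups and *Nlgn2* (80.2 ± 5.98) and *Gabbr1* (79.2 ± 4.67) did not differ beyond their spread in RFP, so the order depends on the transcripts in use.

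Cultures were read from the first number of each library name, as in CRE 1-3, which the labels title Cre1, rep 3. The labels do not call that number a culture. By this reading, 7 of the 8 genes had a negative difference in each of the 3 cultures. Over the 21 libraries *Gabrb1* was at -1.10, -0.70 and -0.86 on the log2 scale in cultures 1, 2 and 3, and *Gabbr2* at -0.49, -0.70 and -1.01. *Gphn* was at -0.49, -0.45 and -0.76, *Gabrb2* at -0.80, -0.55 and -0.52, and *Gabbr1* at -0.45, -0.12 and -0.12. *Glrb* (-0.37, -0.18 and -0.59) and *Nlgn2* (-0.068, -0.37 and -0.033) were the other 2 below 0 in each, and *Lhfpl4* had -0.071, -0.080 and 0.17. A test of the culture by group interaction gave adjusted p of 0.977 to 0.986 for the 8 genes over the 21 libraries (edgeR). The smallest in any of the 3 sets was 0.449, for *Nlgn2* over the 19. There 2 genes had an unadjusted p under 0.05, *Nlgn2* (0.0264) and *Gabbr1* (0.0454). How many of all genes this test called is not given here, so its values do not show that the cultures agree.

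The lists that follow hold genes that work with the 8. Of the 17 other GABA-A receptor subunits, 12 were tested over the 21 libraries, 5 were lower and 2 higher, with a median log2 difference of -0.41. In the 19 libraries these counts were 6 and 2. *Gabra5*, an alpha subunit of extrasynaptic receptors in the hippocampus, had -1.41 ± 0.15 (edgeR adjusted p = 7.75e-08). *Gabra2* had -1.08 ± 0.20 (adjusted p = 0.000237). *Gabre*, the epsilon subunit, was higher (adjusted p = 1.73e-07), at 1.71 to 7.81 CPM in CRE and 0 to 0.355 CPM in RFP.

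Of 6 glycine receptor and transporter genes 3 were tested, 1 was higher and 0 were lower. The higher one was *Slc6a9*, the glycine transporter GlyT1, at 40.5 ± 18.3 CPM in CRE and 15.3 ± 3.36 CPM in RFP (log2 difference 1.39 ± 0.21, edgeR adjusted p = 1.21e-05). Both *Glra1* and *Glra4*, alpha subunits that pair with the product of *Glrb*, had at most 3 reads in every RFP library. *Glra2*, the fetal alpha subunit gene, averaged 41.7 CPM in CRE and 51.3 CPM in RFP (adjusted p = 0.442). These 3 alpha subunits were named after their values were seen.

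Among 27 gephyrin partners and adhesion genes of inhibitory synapses, 6 were lower, 3 higher and 18 did not pass, with a median of 0.00. Over the 19 libraries 8 were lower, 7 higher and 12 did not pass. *Dynll1*, a dynein light chain that binds gephyrin, had -1.04 ± 0.11 (edgeR adjusted p = 5.4e-08). *Dynll2* of the same list, named after its values were seen, was higher in CRE (0.39 ± 0.10, adjusted p = 0.00458). It averaged 671 ± 126 CPM in CRE and 504 ± 37.9 CPM in RFP. *Nlgn3*, a neuroligin of both excitatory and inhibitory synapses, had -0.97 ± 0.15 (adjusted p = 2.52e-05). *Dag1*, dystroglycan, rose by contrast, from 301 ± 32.7 CPM in RFP to 508 ± 120 CPM in CRE (0.73 ± 0.13, adjusted p = 8.54e-05).

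Of 19 genes of GABA-A receptor assembly and trafficking 5 were lower and 4 higher, with a median of -0.12. The counts over the 19 were 7 lower and 4 higher. *Plcl1*, the PRIP-1 protein that binds beta subunits and GABARAP, had 1.27 ± 0.15 (edgeR adjusted p = 3.05e-07). The others with the smallest p were lower: *Nsf*, the ATPase that acts in vesicle fusion, by -0.53 ± 0.09 (adjusted p = 6.47e-05), *Hap1*, which tethers receptors to kinesin, by -1.30 ± 0.23 (adjusted p = 0.000117), and the receptor partner *Shisa7* by -0.59 ± 0.13 (adjusted p = 0.000689).

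Of 31 GABA-B receptor partners and effectors 30 were tested, 10 were lower and 3 higher, with a median of -0.12. Among the 19 libraries 15 were lower and 5 higher. The auxiliary subunits moved apart. *Kctd8* had 1.40 ± 0.19 (edgeR adjusted p = 2.43e-06) and averaged 21.4 ± 4.66 CPM in CRE and 7.98 ± 2.57 CPM in RFP. *Kctd12*, the more abundant one, had -0.76 ± 0.15 (adjusted p = 0.000261) and averaged 185 ± 43.6 CPM in CRE and 309 ± 62.9 CPM in RFP. *Gng3*, a G protein gamma subunit of neurons, had -0.93 ± 0.11 (adjusted p = 4.09e-07), and *Adcy1*, an adenylate cyclase that calcium stimulates, -0.58 ± 0.12 (adjusted p = 0.000614).

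Gephyrin also makes the molybdenum cofactor, and the genes of that pathway were listed for this reason. Of 10 such genes 8 were tested, 5 were higher and 0 lower, with a median of 0.54. Over the 19 libraries 5 were higher and 1 lower, *Mocs2* (-0.28, edgeR adjusted p = 0.0487), which makes part of the enzyme that adds sulfur in cofactor synthesis. *Mocs2* had -0.39 (adjusted p = 0.171) and *Mocs3*, which acts with it, -0.23 (adjusted p = 0.47) over the 21, both named after their values were seen. *Aox1*, an aldehyde oxidase that uses the cofactor, had 2.58 ± 0.24 (edgeR adjusted p = 8.68e-09) and averaged 53.6 ± 22.8 CPM in CRE and 8.87 ± 2.95 CPM in RFP. *Mocos*, the cofactor sulfurase, was at 7.0 to 34.1 CPM in CRE and 0 to 2.06 CPM in RFP (adjusted p = 3.32e-07). *Mocs1*, of the first step of synthesis, had 1.01 ± 0.18 (adjusted p = 0.000103), and *Mtarc2*, a further enzyme with the cofactor, 0.56 ± 0.16 (adjusted p = 0.00879).

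**Figure D5:**
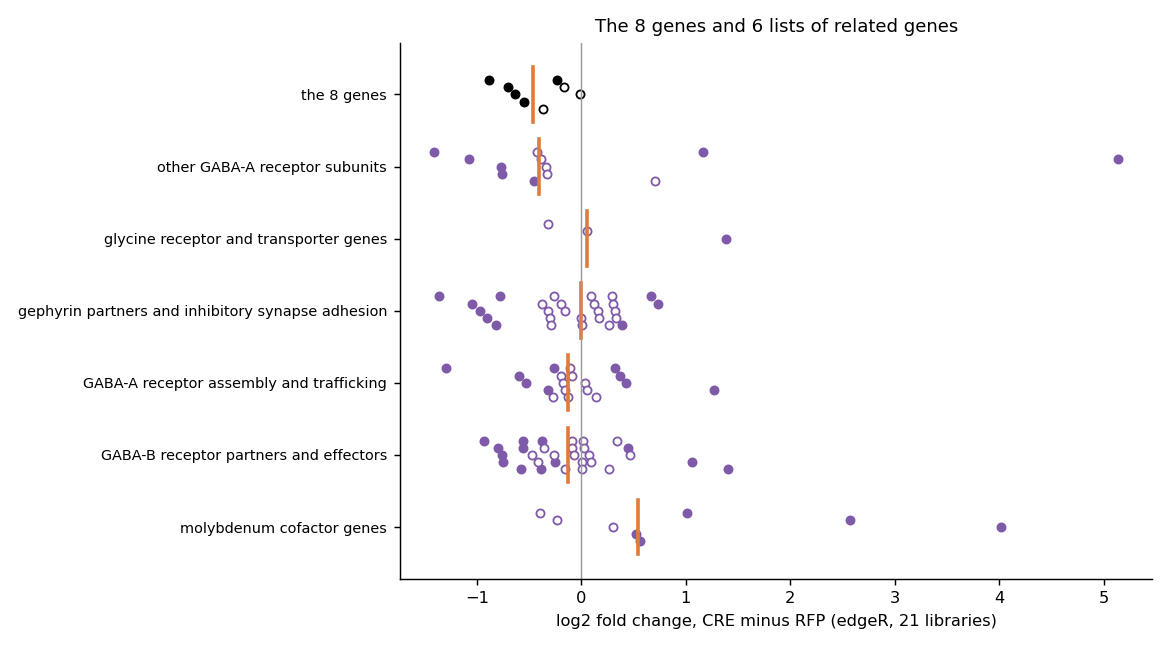
Log2 fold change over the 21 libraries (x axis, edgeR, CRE minus RFP) of every tested gene of the 8 and of the 6 lists of related genes; filled points have an adjusted p under 0.05 and orange bars are medians. The 8 genes lie at or below 0 (median -0.46), while the molybdenum cofactor genes have a median of 0.54 and *Gabre* lies farthest to the right.

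Markers of neuron classes also differed between the groups, and their part in the values of the 8 genes was not tested. Of 10 pan-neuronal markers 5 were lower and 1 higher, and their summed level was 3185 to 6190 CPM in CRE and 6125 to 7425 CPM in RFP libraries of the 21. *Rbfox3*, which encodes NeuN, had -1.03 ± 0.18 (edgeR adjusted p = 9.87e-05), and *Map2*, *Stmn2*, *Syt1* and *Tubb3* had -0.67, -0.80, -0.91 and -0.73. The higher one was *Nefm*, a neurofilament gene (0.54 ± 0.20, adjusted p = 0.0368), and *Snap25* (-0.32), *Nefl* (-0.21) and *Elavl4* (0.0085) did not pass, all 4 named after their values were seen. In the 19, 7 were lower and 0 higher. Of 9 glutamatergic markers 6 were lower and 1 higher (7 and 1 over the 19), at a summed 1100 to 1722 CPM in CRE and 2649 to 4685 CPM in RFP, without overlap. *Camk2a* had -1.99 ± 0.16 (adjusted p = 8.04e-10), *Slc17a7* -1.88, *Neurod6* -1.92 and *Grin2b* -0.98, while *Slc17a6* had 1.45 ± 0.26 (adjusted p = 0.000104). Of 14 GABA neuron markers 4 were lower and 3 higher (5 and 1 over the 19 libraries), with a median of 0.00 and sums of 1726 to 3182 CPM in CRE and 2448 to 3928 CPM in RFP. *Gad1* and *Gad2*, which make GABA, had -0.20 (adjusted p = 0.455) and -0.39 (adjusted p = 0.162) over the 21. Over the 19 they had -0.15 (edgeR adjusted p = 0.388) and -0.34 (adjusted p = 0.00724), so *Gad2* passed there. *Slc32a1* of the same list, named after its values were seen, had 0.44 (adjusted p = 0.0423) over the 21 and 0.36 (adjusted p = 0.0617) over the 19. Over the 21 *Calb2* had -1.39, *Vip* -2.19 and *Dlx5* 1.04, all past the threshold.

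The label names hippocampal neurons, and markers of other cells were present. Of 10 astrocyte markers 4 were lower and 2 higher over the 21 libraries and also over the 19 (2 and 2 over all 23), at a summed 1673 to 5368 CPM in CRE and 3739 to 8024 CPM in RFP. *Gfap* averaged 609 ± 285 CPM in CRE and 702 ± 380 CPM in RFP (edgeR adjusted p = 0.589) and *Aqp4* 172 ± 106 and 283 ± 113 CPM (adjusted p = 0.0847). *Slc1a2* had -0.79 and *S100b* -1.11, and *Sox9* 1.02 and *Gja1* 0.62, all past the threshold. Of 8 oligodendrocyte lineage markers 5 were lower and 0 higher (6 and 0 over the 19). Their sums were 425 to 1910 CPM in CRE and 647 to 1867 CPM in RFP, and ended at 1009 and 1716 CPM over the 19. *Sox10* (-3.13), *Pdgfra* (-2.60), *Cspg4* (-2.22) and *Olig2* (-1.0) were among the lower ones. All 8 microglia markers together summed to 0.341 to 8.06 CPM in CRE and 1.09 to 6.56 CPM in RFP, with 2 tested and 1 higher, *Tmem119* (3.21), and *Aif1* and *Csf1r* averaging 0.111 and 0.592 CPM in CRE. Of 9 endothelial and mesenchymal markers 6 were tested, with *Pdgfrb* higher (0.81) and *Kdr* lower (-1.22), at summed levels of 15.4 to 328 CPM in CRE and 17.4 to 122 CPM in RFP. *Cldn5* had no reads in the RFP libraries of the 21, and *Pecam1* averaged 0.329 CPM in CRE.

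Finally, the genes whose deviations from their group means were most like those of each member were listed over the 19 libraries by Spearman correlation of log2 CPM, as a description. For *Nlgn2* they were *Speg* (0.90) and *Maz* (0.87), for *Gabbr1* *Gfra4* (0.88) and *Ube2o* (0.85), and for *Gabbr2* *Stmn2* (0.88) and *Tmem229b* (0.86). For *Gabrb1* they were *Pcdh20* (0.85) and *Bmpr2* (0.82), for *Gabrb2* *Cxxc4* (0.86) and *Nxph1* (0.85), and for *Lhfpl4* *Donson* (0.84) and *Irs2* (0.84). *Gphn* was most like *Mgam* (0.87) and *Gm13339* (0.81), which averaged 1.28 and 2.12 CPM, and *Glrb* most like *Zfp65* (0.78) and *Mrps22* (0.77). Among the 8 themselves the highest values were 0.78 between *Nlgn2* and *Gabbr1*, both GC-rich, and 0.74 between *Gabrb2* and *Glrb*, both AT-rich, while *Gabbr1* with *Gabbr2* had 0.36 and *Gabrb1* with *Gabrb2* -0.26. Up to 4 of the libraries share a group and a first number, read here as the culture. The part of culture, depth and base composition in these values was not tested.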

How the data were processed

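According to the study's methods and the submitters' processing notes, the authors aligned the reads to GRCm39 (Ensembl release 110) with STAR 2.7.8a and counted them per gene with featureCounts 1.5.0-p1. The deposited values are these raw counts, without normalization. The kit is named as stranded, and the strand setting of the counting is not given in the sources used here. No 2 libraries held identical values.

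Gene names came from GENCODE M39. Counts were tested with edgeR 4.0.16 (R 4.3.3; filterByExpr, TMM factors, robust quasi-likelihood test), p was adjusted by Benjamini-Hochberg across every tested gene, and the threshold was 0.05; 95% intervals used the SE and the normal quantile. The main set is the 21 libraries of the count table behind the study's quality plots, whose methods name another pair as removed. CPM used TMM factors from a fit of all 23 libraries (14382 genes), and Spearman correlations log2(CPM + 1). For ratios of counts, permutation tests were two-sided with up to 100000 resamples. DESeq2 1.42.0 and limma-voom (limma 3.58.1) were alternatives, and scipy 1.17.1, pandas 2.3.3, numpy 2.4.6 and matplotlib 3.10.9 made other values and figures. The edgeR test was checked on counts simulated with known differences. These had the same dispersion for every gene, and no GC trend, odd library or culture effect. The check therefore does not cover such features.

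The 8 genes, the 13 lists and the tests were chosen with earlier results of these data known. The rule for named genes takes the 8, up to 4 genes with the smallest p past the threshold in each list, the first 2 genes of each marker list, the 2 genes most like each of the 8, and *Nedd8*; some genes that the rule takes are not reported here. Fits without the GC trend, the culture block over the 19 libraries and the permutation of ratios within cultures were added after seeing the data. The labels do not say that libraries of one number come from one culture, and p-values measure the spread between libraries, which may be technical in part. Few reads underlie the *Gabrb2* values of CRE 1-3 and CRE 3-3 (74 and 21). The total of CRE 1-3 was 7430401 counts and that of CRE 3-3 was 1546796.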

Additional observations from a re-analysis of the deposited data

Results flagged for a closer look

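RFP 2-4 stood apart in 4 of the 10 sets of RFP values examined (8 genes and 2 ratios, 10 libraries each). There its gap to the nearest other library, divided by the whole range, passed Dixon's 95% critical value. Chance alone flags about 1 set in 20 taken singly, but these sets share the same libraries, so the flags are not independent. *Nlgn2* was at 586 CPM in RFP 2-4, with the next library at 494 CPM. *Lhfpl4* was at 242 CPM, with the next at 199 CPM. *Gabrb1* was at 198 CPM, with the next at 292 CPM, and *Glrb* at 69.3 CPM, with the next at 126 CPM. The first pair is GC-rich and high in this library, and the second pair is AT-rich and low in it. Its mitochondrial share was 3.44%, and the part of RNA quality or library preparation in these values was not tested.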

How the results depend on the processing

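The falls of *Gabrb1* and *Gabbr2* kept their direction and their side of the threshold in all alternatives run. Culture and library numbers are shared between the groups. Between groups, deviations of the same culture number correlated at 0.073, -0.11 and 0.20 over the 21 libraries. Over the 19 they correlated at 0.13, 0.18 and 0.13. Those of different numbers ran from -0.29 to 0.29 over the 21 and from -0.17 to 0.052 over the 19. Whether the groups of one number share a culture was not tested. The replicate block by culture number changed no call over the 21 (5 of 8 genes) and gave the same 7 of 8 over the 19, and the block by library number left 4 of 8 genes, with *Gabbr1* at -0.24 (adjusted p = 0.0542). Over all 23 libraries *Nlgn2* was at 0.029, *Lhfpl4* at 0.034, *Gabbr1* at -0.19 and *Glrb* at -0.48. *Nlgn2* passed over the libraries left by the study's methods (-0.28), the 19 (-0.28) and the 19 with the culture block (-0.29), and *Glrb* over the 19 (-0.37), the 19 with the block (-0.37), the 19 without the GC trend (-0.35), and sums per culture without (-0.36) and with the block (-0.36). With library totals alone 3 of 8 genes passed, *Gabrb2* being at -0.54, *Gabbr1* at -0.15 and *Lhfpl4* at 0.072. Without a filter on low counts 3 passed, with *Gabrb2* at -0.62 and *Gabbr1* at -0.22, and 6920 genes in all against 4370. Removing the GC trend put *Gphn* at -0.34 over the 21 and *Lhfpl4* at 0.015 over the 19. Sums per culture put *Gabbr1* at -0.25 without (adjusted p = 0.13) and -0.25 with the block (adjusted p = 0.114), neither past the threshold, and the *Gabbr1* to *Gabbr2* ratio at 0.52 (exact permutation p = 0.1, adjusted 0.2). The *Gabrb1* to *Gabrb2* ratio, with labels permuted within cultures as a replicate block, differed by -0.26 over the 19 (p = 0.025). Leaving out 1 library or culture at a time gave 3 to 6 of the 8 genes and 2114 to 5507 genes in all, the fewest genes in all without culture 2 and the fewest of the 8 without culture 2, culture 3 or RFP 2-1, and log2 differences of -0.12 to -0.30 for *Gabbr1*, -0.51 to -0.73 for *Gabrb2*, -0.29 to -0.48 for *Glrb*, -0.031 to -0.32 for *Nlgn2* and -0.10 to 0.054 for *Lhfpl4*. The cause of these changes was not tested. For the named genes of the lists, 400 of the values under alternatives kept direction and call, 5 gained and 2 lost the call, and none reversed.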
